A study of Mus musculus with 14 samples.

Results

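The genes described here are the transcripts that report and restrain fibroblast growth factor (FGF) signaling. They are 10 genes chosen by symbol, namely the Sprouty genes *Spry1*, *Spry2* and *Spry4*, the Sprouty-related genes *Spred1* and *Spred2*, the phosphatase gene *Dusp6*, the receptor antagonist gene *Il17rd* and the ETS factor genes *Etv1*, *Etv4* and *Etv5*. All 10 were among the 23284 gene symbols counted, and all 10 passed the filter on low counts that left 12393 genes for testing. Each was read in every library, with 491 to 18044 reads per gene and library.

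FGFs bind receptor tyrosine kinases at the cell surface and, through RAS and RAF, activate the kinase ERK. ERK switches on a small set of genes that is used as a readout of the pathway. Some encode ETS transcription factors, which carry the response to target genes, and others encode inhibitors that act back on the pathway at the receptor, at RAF or at ERK itself. In the limb bud the FGFs of the apical ectodermal ridge signal to the mesenchyme below, and *Dusp6*, the Sprouty genes, *Etv4* and *Etv5* are known as transcriptional reporters of that signal.

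The libraries came from NMRI mouse embryos collected with 30 somites, called E10.0, or with 35 somites, called E10.5. At each stage 3 wild-type embryos, labelled *Smad4*+/+ PrxCre T/+, and 4 mutant embryos, labelled *Smad4* Δ/Δc PrxCre T/+, were sequenced, with both forelimb buds of 1 embryo in 1 library, so that all 14 embryos carried the Cre transgene. Mutants combined a germline null allele with a floxed allele that Cre, driven by a *Prrx1* enhancer, removes in limb mesenchyme, so that ectoderm, which lies outside the domain of this Cre, keeps the floxed allele intact. SMAD4 is the shared partner of the SMADs that carry BMP and TGFβ signals. Per the methods of the study, controls and mutants were littermates, from males that carried the null allele and females heterozygous for the floxed allele, whereas the labels name females with both alleles floxed.

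Between 34066930 and 61691258 reads per library were counted on genes. *Smad4* itself fell in the mutants from 161 to 39.7 CPM (counts scaled to the size of their library) at E10.0 and from 166 to 37.0 CPM at E10.5, with no overlap between the genotypes at either stage. Mutant replicates 4 and 5 of both stages stood apart, since the ribosomal RNA precursor *Rn45s* took up 1.72% to 8.05% of their reads on genes and 0.151% to 0.478% in the 10 other libraries. All 4 of these libraries are mutants, and no wild-type library had such a share. Results are therefore also given with only the replicates numbered 1 to 3. The mesenchymal marker *Prrx1* was abundant in all groups, with means of 600 to 865 CPM, whereas the summed level of 13 ectoderm and ridge markers ranged from 207 to 384 CPM over the 14 libraries. *Prrx1* was lower in mutants, with 732 CPM in wild type against 600 CPM at E10.0 and 865 against 693 CPM at E10.5. In bulk tissue a lower level cannot be told apart from fewer cells that carry the transcript.

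In the mm9 genome the 10 genes lie on 8 autosomes. *Spry1* is on chromosome 3 (37538869 to 37543520, plus strand), *Spry2* on chromosome 14 (106291166 to 106296036, minus strand) and *Spry4* on chromosome 18 (38745922 to 38760922, minus strand). *Spred1* is on chromosome 2 (116947110 to 117008015, plus strand) and *Spred2* on chromosome 11 (19824378 to 19924029, plus strand). *Dusp6* is on chromosome 10 (98725865 to 98730122, plus strand) and *Il17rd* on chromosome 14 (27852187 to 27920472, plus strand). *Etv1* is on chromosome 12 (39505967 to 39594802, plus strand), *Etv4* on chromosome 11 (101631056 to 101646685, minus strand) and *Etv5* on chromosome 16 (22381382 to 22439792, minus strand).

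Levels differed widely among the 10 genes once CPM was divided by the length of the annotated exons in kb. In wild type at E10.0 *Dusp6*, which encodes a phosphatase that removes the activating phosphates from ERK, had the highest level with 91.7 ± 1.72 CPM per kb (SD, n=3). *Etv5* followed with 41.8 ± 1.02 CPM per kb and *Il17rd* with 26.0 ± 2.08 CPM per kb. *Etv4* had 23.7, *Spry1* 20.2, *Spred1* 19.9, *Spry2* 16.8, *Spred2* 14.3 and *Spry4* 12.2 CPM per kb, while *Etv1* was lowest with 2.95 CPM per kb. The ranges of the 3 libraries overlapped for the neighbours *Il17rd* and *Etv4* and for *Spry1* and *Spred1*, and for no other neighbours in this order. *Dusp6*, *Etv5* and *Il17rd* held the first 3 places in all 4 groups, and *Etv1* the last. *Spry2* held the 7th place in both wild-type groups and in mutants at E10.0, but the 4th in mutants at E10.5 with 23.3 ± 0.388 CPM per kb (SD, n=4), where its range overlapped that of *Spred1*.

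**Figure D1:**
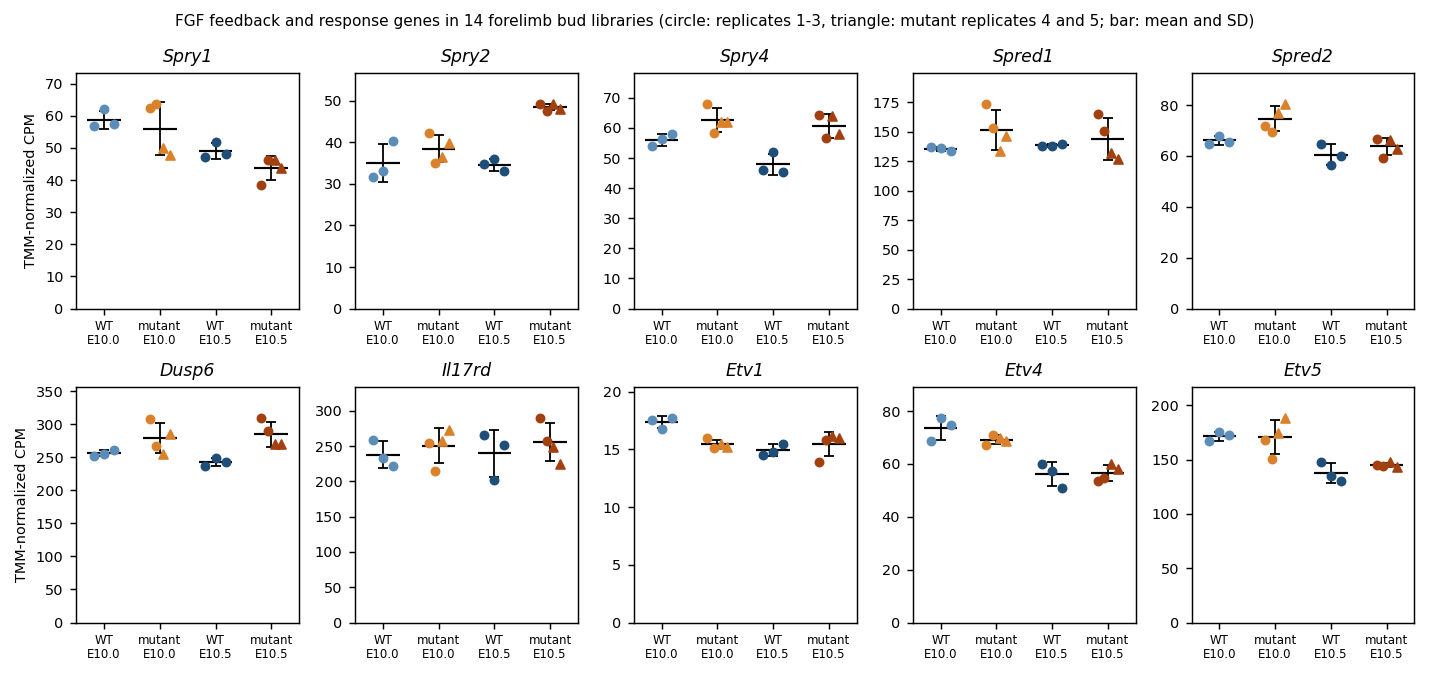
TMM-normalized CPM of each of the 10 genes (vertical axis, from 0) in the 14 libraries, by genotype and stage, where points are libraries, bars are the mean and SD, and triangles are mutant replicates 4 and 5. The 4 *Spry2* points of E10.5 mutants lie between 47.6 and 49.2 CPM, above the highest wild-type point of 40.2 CPM at E10.0.

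The promoter windows of the genes that moved, and of the most abundant gene, are shown because SMAD and ETS proteins bind DNA. Each window runs from 250 bases before to 50 bases after a RefSeq transcription start in GRCm38.p6, a later build than that of the counts, and is written 5′ to 3′ on the strand of the gene. RefSeq windows were matched for 8 of the 10 genes, with 10 windows in all, since *Etv1* and *Etv5* each had 2. *Spry4* and *Etv4* had none. Capitals mark matches on either strand to the ETS core CGGAAG, to the SMAD box GTCTG or to the GC-rich SMAD motif GGCGCC, and positions are counted from 0 at the start site to the first base of a match. The windows below are those of *Spry1* (chr3:37639697-37639996, plus strand), *Spry2* (chr14:105896770-105897069, minus strand), *Dusp6* (chr10:99262981-99263280, plus strand) and *Etv5* (chr16:22439521-22439820, minus strand, the first of its windows).
Spry1: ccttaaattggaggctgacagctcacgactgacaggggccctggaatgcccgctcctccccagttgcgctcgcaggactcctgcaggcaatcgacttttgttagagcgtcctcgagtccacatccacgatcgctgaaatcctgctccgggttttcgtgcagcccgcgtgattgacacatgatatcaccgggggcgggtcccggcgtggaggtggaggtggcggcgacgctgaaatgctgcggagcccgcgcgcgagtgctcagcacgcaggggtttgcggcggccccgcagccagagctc
Spry2: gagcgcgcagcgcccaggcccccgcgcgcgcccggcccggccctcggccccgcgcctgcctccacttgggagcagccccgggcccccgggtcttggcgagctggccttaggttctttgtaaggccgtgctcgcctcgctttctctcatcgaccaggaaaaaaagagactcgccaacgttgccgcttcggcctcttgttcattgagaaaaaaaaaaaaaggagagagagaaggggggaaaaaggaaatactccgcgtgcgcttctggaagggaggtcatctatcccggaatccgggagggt
Dusp6: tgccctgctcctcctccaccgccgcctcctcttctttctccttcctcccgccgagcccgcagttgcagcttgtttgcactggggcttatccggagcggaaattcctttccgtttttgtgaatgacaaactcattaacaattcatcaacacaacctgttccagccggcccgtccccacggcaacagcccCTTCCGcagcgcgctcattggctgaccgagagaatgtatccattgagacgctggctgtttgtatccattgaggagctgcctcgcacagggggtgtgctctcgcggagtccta
Etv5: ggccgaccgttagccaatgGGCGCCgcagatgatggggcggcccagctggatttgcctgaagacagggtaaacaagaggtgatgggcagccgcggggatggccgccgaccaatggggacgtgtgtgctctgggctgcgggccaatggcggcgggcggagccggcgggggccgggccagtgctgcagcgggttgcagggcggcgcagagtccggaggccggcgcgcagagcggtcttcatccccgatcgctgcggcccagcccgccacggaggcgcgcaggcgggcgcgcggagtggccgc

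The windows of *Spry1* and *Spry2* held none of these motifs. *Dusp6* had 1 ETS core at position -62, and the first *Etv5* window had 1 GC-rich SMAD motif at position -231. Among the windows not printed, those of *Spred1* and *Spred2* had both motifs, and those of *Etv1*, of *Il17rd* and the second of *Etv5* had neither. The ETS core was thus found in 3 of the 10 windows, from 3 of 8 genes, and 16.9% of 32851 RefSeq windows of the same length hold it. The GC-rich motif was found in 3 of the 10 windows, from 3 of 8 genes, and is in 11.9% of all windows. The share of G and C was 44% to 74% over the 10 windows, and 72.3%, 57% and 74% in those with the GC-rich motif. All windows had a median share of 52.7%, and the part of this share in the counts was not tested. The SMAD box, which 49.6% of all windows hold, was in none of the 10, which says only that these letters are not in these windows.

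The first comparison asked whether loss of mesenchymal *Smad4* altered these transcripts at E10.0, when signaling between the posterior mesenchyme and the ridge is being set up. None of the 10 genes passed the thresholds, a fold change of at least 1.2 at an FDR of up to 0.1 in the edgeR exact test. Among all 12393 genes 6.61% passed them. Changes are given as log2 of mutant over wild type with the standard error (SE) of the replicates. The count was also 0 with edgeR's quasi-likelihood test, by which 4.85% of all genes passed, and with DESeq2, by which 8.03% did. At an unadjusted P under 0.05 the exact test counted 1 of the 10 genes, where 17.7% of all genes were counted. The quasi-likelihood test counted 3, against 20.2% of all genes, and DESeq2 4, against 21.4%. The median log2 change of the 10 genes was 0.098, with 6 higher and 4 lower in mutants, and that of all genes was -0.017.

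*Spred2*, an inhibitor that keeps RAF from being activated by RAS, came closest in the exact test over all libraries. It had 64.9, 68.0 and 65.4 CPM in wild-type replicates 1, 2 and 3, and 71.9, 69.3, 76.9 and 80.4 CPM in mutant replicates 1, 3, 4 and 5. All 4 mutants were thus above all 3 wild-type embryos, by a log2 change of 0.17 (SE 0.0519) and an adjusted P of 0.264 by the edgeR exact test after Benjamini-Hochberg correction. Mutant replicates 4 and 5 were the highest. With only replicates 1 to 3 the log2 change was 0.11 (adjusted P=0.413, edgeR exact test and Benjamini-Hochberg as before). *Spry4* had 54.0, 56.2 and 58.0 CPM in the wild type against 68.0, 58.3, 61.9 and 62.0 CPM in mutants, again without overlap (log2 change 0.16, SE 0.0535). *Etv1*, the weakly expressed ETS factor, had 17.6, 16.8 and 17.7 CPM in the wild type against 16.0, 15.2, 15.5 and 15.2 CPM in mutants, which was lower in all 4 (log2 change -0.17, SE 0.0280). The groups of these 3 genes did not overlap, and neither did those of 17.8% of all genes at this stage.

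The other 7 genes overlapped between the genotypes at E10.0. In *Spry1*, *Spred1*, *Etv5* and *Il17rd* the mutants split by replicate number. *Spry1*, an inhibitor of receptor signaling, had 56.8, 62.0 and 57.3 CPM in wild type, 62.5 and 63.7 CPM in mutant replicates 1 and 3, and 50.0 and 47.9 CPM in mutant replicates 4 and 5. Its log2 change was -0.066 over all libraries and 0.12 with only replicates 1 to 3. *Spred1*, the second Sprouty-related inhibitor, had 137, 136 and 133 CPM in wild type, 173 and 153 CPM in mutant replicates 1 and 3, and 133 and 146 CPM in mutant replicates 4 and 5. With replicates 1 to 3 alone *Spred1* passed the thresholds (log2 change 0.29, adjusted P=0.0109 by the edgeR exact test after Benjamini-Hochberg correction), as 16.4% of the 12288 genes tested then did, whereas over all libraries its log2 change was 0.16 (adjusted P=0.403, edgeR and Benjamini-Hochberg as before). *Etv5* and *Il17rd* split the other way, with higher levels in mutant replicates 4 and 5. *Etv5* had 168 and 151 CPM in mutant replicates 1 and 3 and 175 and 188 CPM in replicates 4 and 5. *Il17rd* had 255 and 215 CPM in the former and 258 and 273 CPM in the latter. The part of the *Rn45s* share in these splits was not tested.

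Transcripts of the ETS factors *Etv4* and *Etv5* were close in both genotypes at E10.0. *Etv4* had 68.7, 77.4 and 74.9 CPM in the wild type against 67.0, 70.9, 69.9 and 68.5 CPM in mutants (log2 change -0.092, SE 0.0536). *Etv5* had 167, 175 and 172 CPM in the wild type against 168, 151, 175 and 188 CPM in mutants (log2 change -0.0091, SE 0.0697). For both genes the groups overlapped. *Dusp6* had 252, 255 and 262 CPM in the wild type against 308, 267, 255 and 285 CPM in mutants, so that only mutant replicate 4 fell inside the wild-type range (log2 change 0.12, SE 0.0611). *Spry2* (log2 change 0.14, SE 0.119) and *Il17rd* (log2 change 0.073, SE 0.0990) also overlapped.

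At E10.5, during distal outgrowth, *Spry2* and *Spry4* rose in the mutants and no gene of the set passed as lower. These 2 of 10 passed the thresholds in a comparison in which 3.73% of all genes did, 2.19% upward. The median log2 change of the 10 genes was 0.075 against -0.010 for all genes, and 9 of 10 were higher in mutants. The groups of 4 genes did not overlap, namely *Spry1*, *Spry2*, *Spry4* and *Dusp6*, and this held for 13.0% of all genes.

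*Spry2*, an inducible inhibitor that acts between the receptor and ERK, had the largest change. It had 34.7, 36.0 and 33.0 CPM in wild-type replicates 1, 2 and 3, and 49.2, 47.6, 49.2 and 48.0 CPM in mutant replicates 1, 2, 4 and 5. The 4 mutants lay within a narrow range above every wild-type library, including replicates 4 and 5. The mean rose by 40.4%, from 34.6 ± 1.51 (SD, n=3) to 48.5 ± 0.810 CPM (SD, n=4), a log2 change of 0.49 (SE 0.0374, adjusted P=0.000136 by the edgeR exact test after Benjamini-Hochberg correction). With only replicates 1 to 3 the log2 change was 0.50 (adjusted P=0.00149, edgeR and Benjamini-Hochberg as before).

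*Spry4*, the Sprouty gene with the lowest level per kb, had 46.1, 52.0 and 45.5 CPM in the wild type against 64.2, 56.8, 63.9 and 57.9 CPM in mutants. All 4 mutants were above all 3 wild-type embryos, and replicates 4 and 5 lay among the other mutants. The mean rose by 26.7%, a log2 change of 0.34 (SE 0.0754, adjusted P=0.00798 by the edgeR exact test after Benjamini-Hochberg correction). Without wild-type replicate 3 at E10.5 the log2 change was 0.31 and the adjusted P of the same edgeR test 0.102, just beyond the FDR threshold. With only replicates 1 to 3 it was 0.35 (adjusted P=0.0257 by the edgeR exact test after Benjamini-Hochberg correction).

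*Dusp6* followed the pair without passing. It had 237, 248 and 243 CPM in wild type, 310 and 289 CPM in mutant replicates 1 and 2, and 271 CPM in both mutant replicates 4 and 5. Every mutant was thus above every wild-type embryo, and replicates 4 and 5 were the lower mutants. The log2 change was 0.23 (SE 0.0502, adjusted P=0.161 by the edgeR exact test after Benjamini-Hochberg correction). With only replicates 1 to 3, when 4.27% of all genes passed, it passed as well (log2 change 0.31, adjusted P=0.0103 by the edgeR exact test after Benjamini-Hochberg correction). Under DESeq2 with Benjamini-Hochberg correction the adjusted P was 0.0265 at a log2 change of 0.24, which is below a fold of 1.2.

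*Spry1* stood against the other Sprouty genes, with 47.2, 51.8 and 48.0 CPM in the wild type against 38.3, 46.3, 46.3 and 43.7 CPM in mutants. Its mutants were all below the wild type, but the log2 change of -0.17 (SE 0.0744) did not pass (adjusted P=0.691 by the edgeR exact test after Benjamini-Hochberg correction). The ratio of *Spry2* to *Spry1* per kb within each library is free of library scaling. It was 1.03, 0.970 and 0.958 in wild type at E10.5 and 1.79, 1.43, 1.48 and 1.53 in mutants. The ratio of *Spry4* to *Spry1* was 0.619, 0.636 and 0.601 in wild type at E10.5 and 1.06, 0.777, 0.874 and 0.840 in mutants. Neither ratio overlapped, which adds no separate result. Every mutant was already above the wild type for *Spry2* and *Spry4* and below it for *Spry1*. At E10.0 both ratios overlapped between the genotypes, with means of 0.833 and 0.972 for *Spry2* over *Spry1* in wild type and mutants.

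**Figure D2:**
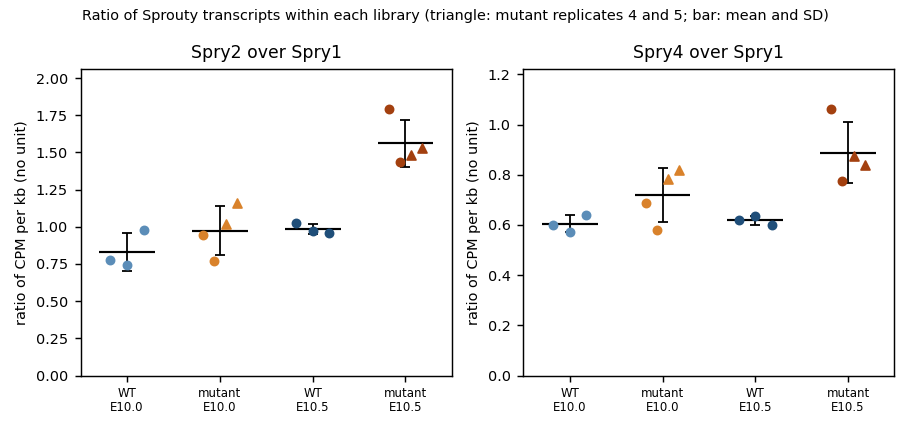
Ratio of CPM per kb (vertical axis, no unit, from 0) of *Spry2* to *Spry1* (left) and of *Spry4* to *Spry1* (right) in each of the 14 libraries, with the mean and SD of each group and triangles for mutant replicates 4 and 5. The *Spry2* to *Spry1* ratio is near 1 in wild type at E10.5 and 1.43 or more in all 4 mutants of that stage.

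The ETS factors and the remaining inhibitors differed little at E10.5. *Etv4* had 60.0, 57.3 and 51.0 CPM in the wild type against 53.4, 54.7, 60.0 and 58.2 CPM in mutants (log2 change 0.012, SE 0.0784). *Etv5* had 148, 135 and 131 CPM in the wild type against 145, 144, 148 and 143 CPM in mutants (log2 change 0.073, SE 0.0550). For both genes the groups overlapped, so that the ETS outputs did not separate the genotypes while *Spry2* and *Spry4* did. *Etv1* was at 14.5 to 15.5 CPM in the wild type against 13.9 to 16.1 CPM in mutants, *Spred2* at 56.5 to 64.8 and 59.3 to 66.6 CPM, and *Il17rd*, which encodes the membrane antagonist SEF, at 202 to 266 and 225 to 290 CPM. *Spred1* again split by replicate number, with 138, 138 and 140 CPM in wild type, 165 and 151 CPM in mutant replicates 1 and 2, and 132 and 127 CPM in mutant replicates 4 and 5. Its log2 change was 0.055 (SE 0.0884) over all libraries and 0.20 with replicates 1 to 3 (adjusted P=0.203 by the edgeR exact test after Benjamini-Hochberg correction).

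**Figure D3:**
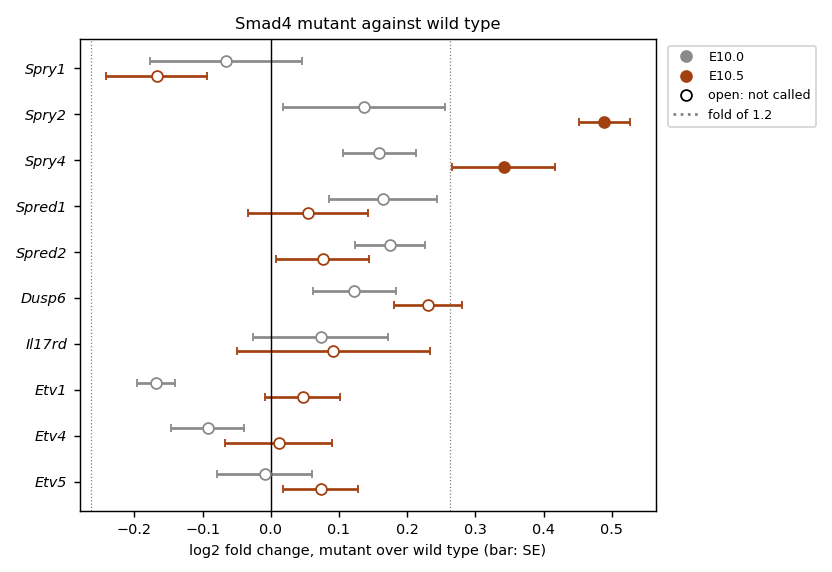
Log2 fold change of mutant over wild type (horizontal axis) for each gene at E10.0 and E10.5, with bars for the standard error, filled points for genes that passed the thresholds and dotted lines at a fold of 1.2. Only *Spry2* (0.49) and *Spry4* (0.34) at E10.5 are filled.

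A test of the stage by genotype interaction asked whether the 2 genotype effects differed. No gene of the set passed an FDR of 0.1 in edgeR's quasi-likelihood test, as 0.186% of all genes did, and the count was also 0 under DESeq2, where 0.702% of all genes passed. At an unadjusted P under 0.05 there were 2 of 10 genes, against 5.76% of all genes, and 1 under DESeq2, against 6.30%. *Spry2* had the largest value, 0.35 on the log2 scale (SE 0.125, adjusted P=0.668 by edgeR's quasi-likelihood test after Benjamini-Hochberg correction), and *Etv1* had 0.22 (SE 0.0614, adjusted P=0.862, edgeR and Benjamini-Hochberg as before). The rise of *Spry2* at E10.5 is therefore not shown to differ from its change at E10.0.

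Between E10.0 and E10.5 in wild type, *Etv4* and *Etv5* fell and no gene of the set passed as higher. These 2 of 10 passed where 10.1% of all genes did, 4.74% downward, and 8 of 10 genes were lower at the later stage with a median log2 change of -0.17 against -0.0086 for all genes. The 3 *Etv4* values listed above fell from 68.7 to 77.4 CPM to a range of 51.0 to 60.0 CPM (log2 change -0.39, SE 0.0854, adjusted P=0.000942 by the edgeR exact test after Benjamini-Hochberg correction). *Etv5* fell from 167 to 175 CPM to a range of 131 to 148 CPM (log2 change -0.31, SE 0.0578, adjusted P=0.0153, edgeR and Benjamini-Hochberg as before). The stages did not overlap for either gene. The *Etv5* call was lost without wild-type replicate 2 at E10.0 (adjusted P=0.117) and without wild-type replicate 3 at E10.5 (adjusted P=0.185), both by the edgeR exact test after Benjamini-Hochberg correction.

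*Spry1*, *Spry4* and *Etv1* were lower at E10.5 in wild type without passing, with log2 changes of -0.26, -0.23 and -0.22. Their stages did not overlap, and neither did those of *Spred1*, *Spred2* and *Dusp6*, whose log2 changes were 0.031, -0.13 and -0.077. Together with *Etv4* and *Etv5* these made 8 of 10 genes without overlap, where 37.0% of all genes had none. *Spry2* did not separate the stages, with 35.0 ± 4.59 CPM at E10.0 and 34.6 ± 1.51 CPM at E10.5 (SD, n=3 each), and neither did *Il17rd* with 238 ± 19.0 and 240 ± 33.4 CPM.

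In the mutants *Spry2* rose between the stages, while *Spry1* and *Etv4* fell. These 3 of 10 passed where 19.2% of all genes did, 10.8% upward and 8.40% downward. The genotype comparison at E10.5 and this one share the E10.5 mutant libraries. *Spry2* had 42.3, 35.0, 36.5 and 40.0 CPM at E10.0, all below the 47.6 to 49.2 CPM of E10.5 (log2 change 0.34, SE 0.0610, adjusted P=0.00285 by the edgeR exact test after Benjamini-Hochberg correction). *Spry1* fell from a range of 47.9 to 63.7 CPM to one of 38.3 to 46.3 CPM (log2 change -0.36, SE 0.122, adjusted P=0.00343, edgeR and Benjamini-Hochberg as before). With only replicates 1 to 3 the *Spry1* change was -0.57 on the log2 scale, over 1.5 times as large.

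*Etv4* fell in the mutants from a range of 67.0 to 70.9 CPM to one of 53.4 to 60.0 CPM (log2 change -0.29, SE 0.0416, adjusted P=0.00345 by the edgeR exact test after Benjamini-Hochberg correction). Without mutant replicate 1 at E10.5 its log2 change of -0.26 was just under the fold of 1.2. *Etv5* (log2 change -0.23) and *Spred2* (log2 change -0.23) had adjusted P values of 0.0250 and 0.0287 by the edgeR exact test after Benjamini-Hochberg correction but stayed under that fold. *Spry4*, *Spred1*, *Dusp6*, *Il17rd* and *Etv1* overlapped between the stages, with log2 changes between -0.078 and 0.031.

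**Figure D4:**
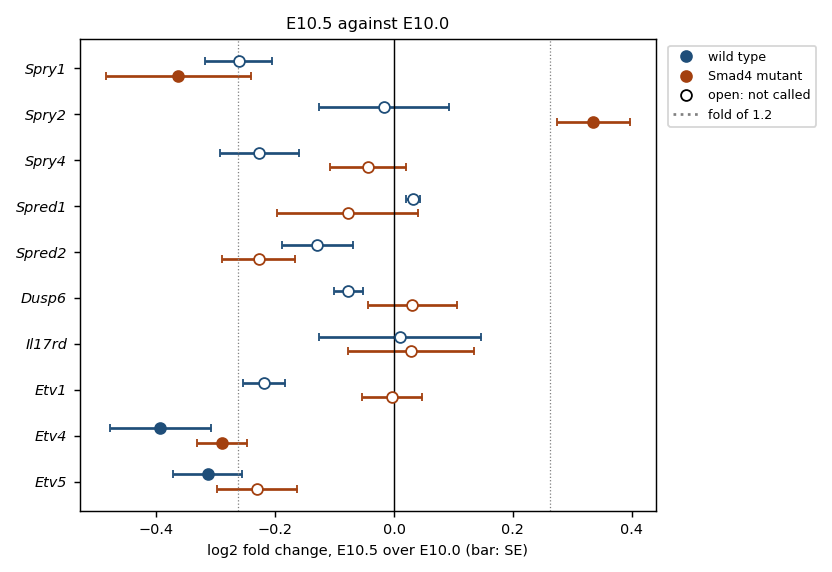
Log2 fold change of E10.5 over E10.0 (horizontal axis) for each gene in wild type and in mutants, with bars for the standard error, filled points for genes that passed the thresholds and dotted lines at a fold of 1.2. *Etv4* is filled on the negative side in both genotypes, at -0.39 and -0.29, and *Spry2* is filled on the positive side in mutants alone, at 0.34, although the interaction did not pass.

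Upstream of this set, 9 of 13 FGF ligand and receptor genes could be tested. At E10.0 none of the 9 passed by genotype, with 2 at an unadjusted P under 0.05 in edgeR's exact test. Of all genes 6.61% passed and 17.7% reached that P. At E10.5 the ligand genes *Fgf9* (2.26 to 4.39 CPM, log2 change 0.97) and *Fgf18* (1.35 to 2.83 CPM, log2 change 1.05) rose in mutants, and the receptor genes *Fgfr2* (108 to 77.1 CPM, log2 change -0.49) and *Fgfr3* (8.52 to 5.92 CPM, log2 change -0.52) fell. Their adjusted P values ranged from 2.44e-05 to 0.00233 by the edgeR exact test after Benjamini-Hochberg correction. These were 4 of the 9, where 3.73% of all genes passed. The main ridge ligand gene *Fgf8* did not pass, with 13.3 and 14.1 CPM in the wild type against mutants at E10.5 (log2 change 0.078, SE 0.205), and neither did *Fgf4* with 3.43 and 2.55 CPM (log2 change -0.42, SE 0.186). With stage, 3 of the 9 passed in wild type and 5 in mutants, where 10.1% and 19.2% of all genes did. *Fgf9*, *Fgf18* and *Fgf4* rose in both genotypes, and in mutants the mesenchymal ligand gene *Fgf10* fell (log2 change -0.38). In wild type the *Fgf18* call was lost when any 1 of the 6 libraries was left out (adjusted P of 0.127 to 0.234), and the *Fgf4* call without replicate 2 or 3 at E10.0 (adjusted P of 0.186 and 0.102), all by the edgeR exact test after Benjamini-Hochberg correction. The *Fgf4* call in mutants was lost with only replicates 1 to 3.

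Of 21 genes of the relay from receptor to ERK, 20 were tested and 1 passed by genotype, at E10.0, when 6.61% of all genes did. This was *Nf1*, which encodes a GTPase activator that switches RAS off, with 68.3 CPM in the wild type against 92.3 CPM in mutants at E10.0 (log2 change 0.43, adjusted P=0.0606 by the edgeR exact test after Benjamini-Hochberg correction). The *Nf1* call was lost with edgeR's quasi-likelihood test (Benjamini-Hochberg adjusted P=0.135), and in the exact test when wild-type replicate 1 or 3 or mutant replicate 1, 3 or 5 of that stage was left out (adjusted P of 0.105 to 0.479, log2 changes of 0.31 to 0.45). At E10.5 none of the 20 passed or reached an unadjusted P under 0.05 in edgeR's exact test, while 3.73% of all genes passed. With stage 2 of the 20 passed in each genotype, where 10.1% of all genes did in wild type and 19.2% in mutants. The adaptor gene *Gab2* rose and the ERK kinase gene *Map2k1* fell in wild type, and *Gab1* rose and *Map2k1* fell in mutants. The *Map2k1* call in wild type (log2 change -0.27, adjusted P=0.0980, edgeR and Benjamini-Hochberg as before) was lost in 15 of 20 alternatives, and that of *Gab2* without any 1 of the 6 wild-type libraries (adjusted P of 0.132 to 0.327). In mutants the log2 change of *Map2k1* fell short of the fold of 1.2 without replicate 1 or 3 at E10.0 or replicate 4 or 5 at E10.5.

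Of 24 further genes that ERK induces or that damp receptor signaling, 22 were tested. *Lrig1*, which encodes a membrane protein that promotes turnover of growth factor receptors, rose in mutants at both stages, from 29.2 to 39.5 CPM at E10.0 (log2 change 0.44) and from 44.9 to 69.2 CPM at E10.5 (log2 change 0.62). *Egr1*, an immediate early gene, rose in mutants at E10.5 from 2.64 to 5.05 CPM (log2 change 0.93). The adjusted P values were 0.00122, 1.03e-07 and 0.000989 by the edgeR exact test after Benjamini-Hochberg correction. No gene of this list passed as lower with genotype at either stage, but 14 of the 22 were lower at E10.0 and 10 at E10.5. Higher were 8 and 12 of the 22, against 45.8% and 46.7% of all genes. The median log2 changes of the list were -0.077 and 0.017. *Dusp5*, named after its values were seen, had the lowest log2 changes, -0.48 at E10.0 and -0.69 at E10.5. At E10.5 it had 2.07 CPM in the wild type against 1.27 CPM in mutants without overlap (adjusted P=0.156, edgeR and Benjamini-Hochberg as before). With stage 1 gene rose and 5 fell in wild type, and 2 rose and 3 fell in mutants, where 10.1% and 19.2% of all genes passed. Among those with the smallest P, *Lrig1* rose and the phosphatase gene *Dusp5* and the proto-oncogene *Myc* fell in both genotypes, *Egr1* fell in wild type, and *Spred3* rose in mutants. The *Myc* call in wild type was lost without replicate 2 at E10.0 (adjusted P=0.123, edgeR and Benjamini-Hochberg as before).

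The ridge and ectoderm genes mark the ridge, which sends the FGF signal, or the wider ectoderm. Of the 14 genes 11 were lower in mutants at each stage, mostly without passing. At E10.5 none passed in edgeR's exact test, with 1 at an unadjusted P under 0.05 and a median log2 change of -0.10. This was *Wnt7a*, a ligand gene of the dorsal ectoderm, named after its values were seen, with 10.2 CPM in the wild type against 7.35 CPM in mutants and no overlap (log2 change -0.48, SE 0.147, adjusted P=0.148 by the edgeR exact test after Benjamini-Hochberg correction). At E10.0 *Wnt7a* had 19.3 and 14.4 CPM with overlap (log2 change -0.42), and the keratin gene *Krt5* passed as the only one, from 42.5 to 32.3 CPM (log2 change -0.40, adjusted P=0.0485, edgeR and Benjamini-Hochberg as before). The *Krt5* call was lost with the quasi-likelihood test (adjusted P=0.107) and in the edgeR exact test without any 1 of the 3 wild-type libraries or mutant replicate 1 or 5 of that stage (Benjamini-Hochberg adjusted P of 0.106 to 0.208). The summed level of 13 ectoderm and ridge markers at E10.5 was 285 to 299 CPM in the wild type against 207 to 298 CPM in mutants, and the part of these levels in the Sprouty results was not tested. With stage 1 of the 14 rose and 3 fell in wild type, and 3 rose and 5 fell in mutants, where 10.1% and 19.2% of all genes passed. *Wnt7a*, *Sp6* and *Wnt6* fell and *Fgf4* rose in both genotypes, and *Krt14* and *Krt5* rose in mutants. Without wild-type replicate 2 at E10.0 the wild-type calls of *Sp6* and *Wnt6* were lost (adjusted P of 0.144 and 0.280, edgeR and Benjamini-Hochberg as before), that of *Wnt6* also without replicate 2 or 3 at E10.5, and the *Krt5* call in mutants was lost with only replicates 1 to 3.

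Other cell type markers also moved with genotype, and their part in the Sprouty results was not tested. Among all genes 6.61% were called by genotype at E10.0 and 3.73% at E10.5. Of 8 limb mesenchyme markers 4 were called lower in mutants at E10.0, and 3 were called lower and 1 higher at E10.5. *Prrx1* was among those called lower at both stages (log2 changes -0.29 and -0.32). The summed level of 5 mesothelium and body wall markers was 2.89 to 4.67 CPM in the wild type against 10.1 to 22.6 CPM in mutants at E10.0, with 3 called higher, and 4.89 to 7.48 and 2.17 to 4.87 CPM at E10.5, with 2 called lower. Of 5 macrophage markers 2 were called higher in mutants at E10.0 and none at E10.5. Of 5 muscle precursor markers 1 was called higher in mutants at E10.0, *Myf5* (0.578 to 1.40 CPM, log2 change 1.26). Without a call, *Lbx1* (-0.38) and *Cxcr4* (-0.28) were lower and *Pax3* (0.087) and *Met* (0.12) higher. The summed levels of the 5 overlapped, with 87.29 to 98.59 CPM in the wild type against 85.55 to 107.7 CPM in mutants. *Erbb3* was the only 1 of 5 neural crest and Schwann precursor markers that was tested. It was called lower at E10.5 (9.76 to 7.28 CPM, log2 change -0.42). None of 7 endothelial markers was called by genotype. The globin gene *Hba-a1* was listed at 0 in every library, beside group means of 1440 to 2012 CPM for the embryonic globin gene *Hbb-y*. *Hba-a1* has a near-identical copy, and reads shared with it may not have been counted.

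The genes whose profiles were most like those of *Spry2* and *Spry4* were sought over the 14 libraries among 8837 genes with a mean of at least 10 CPM. The measure was the root mean square difference of log2(CPM + 1) values, each gene centred on its own mean. The nearest to *Spry2* were *Tgfbr2* (0.105), *Ica1* (0.110) and *Chn1* (0.113), against a spread of 0.217 for *Spry2* itself. *Tgfbr2*, which encodes a TGFβ receptor, rose in mutants at E10.5 by a log2 change of 0.43 and between stages in mutants by 0.35, beside 0.49 and 0.34 for *Spry2*. At E10.5 *Ica1* also passed as higher in mutants (log2 change 0.38), and *Chn1* did not pass (0.24). The nearest to *Spry4* were *Efnb2* (0.0864), *Tom1l1* (0.0914) and *Lrrfip1* (0.0921), against its own spread of 0.161. *Efnb2*, which encodes an ephrin ligand, rose in mutants at E10.5 by a log2 change of 0.32, beside 0.34 for *Spry4*. *Tom1l1* (0.19) and *Lrrfip1* (0.21) did not pass at that stage. These genes were chosen by their values in the same 14 libraries, so that their likeness to *Spry2* and *Spry4* adds no separate result.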

How the data were processed

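RNA of 14 forelimb bud pairs was sequenced from polyA libraries without strand information, so that a gene and an antisense partner cannot be told apart. Per the labels and the methods of the study, single reads were aligned to mm9 with TopHat2 2.0.13 and counted per gene with HTSeq (version not given in the sources used here). The authors deposited raw counts per gene symbol. Reads without a feature (6.18% to 9.86%) and ambiguous reads (1.49% to 1.75%) were left out. Symbols of the sex chromosomes and of mitochondrial DNA (1041) were removed, and the 12393 others that reached 1 CPM in 3 or more libraries were tested. Counts were normalized by TMM (factors 0.934 to 1.035) and compared with the exact test of edgeR 4.0.16 in R 4.3.3, with a prior of 10 degrees of freedom, Benjamini-Hochberg adjustment over all genes tested and thresholds of 0.1 for the FDR and 1.2 for the fold change, as the methods of the study state. The interaction used edgeR's quasi-likelihood test, and DESeq2 1.42.0 was an alternative. The exact test and the interaction test were first checked on simulated data with planted changes, and DESeq2 was not. Standard errors were taken from the variance of log2(CPM + 1) over replicates.

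The 10 genes, the 4 further gene lists, the markers and the alternatives were chosen with earlier results of these data known. Named are the 10 genes, every gene of a list that passed between genotypes, at most 4 genes of a list and comparison by smallest P between stages, *Smad4*, and the 3 genes most like each of the genes called between genotypes. *Fgf8*, *Fgf4*, *Wnt7a* and *Dusp5* between genotypes, *Wnt6* between stages in mutants and the cell type markers with their values were named in addition. Alternatives were other tests, size factors and filters, a replicate block, each stage alone, replicates 1 to 3 alone and each library left out. Levels per kb used the exon lengths of the mm9 annotation. Libraries of a group always differed by more than sampling noise (chi-square of at least 14 for each degree of freedom), so that all were kept. Figures were drawn with Python 3.11.15.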

Additional observations from a re-analysis of the deposited data

Results flagged for a closer look

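Among the 20 sets of 4 mutant libraries examined (10 genes at each of 2 stages), 1 held a library far from the other 3. *Etv1* had 13.9 CPM in mutant replicate 1 at E10.5, with the nearest library at 15.8 CPM and a gap that made up 0.871 of the range. How often such a gap arises by chance was not tested. Without this library the *Etv1* difference between genotypes at E10.5 stayed small and did not pass.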

How the results depend on the processing

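No called change of the 10 genes changed direction under any of the alternatives run. Of 1010 alternative values 960 kept direction and call, 4 lost and 5 gained a call, and 41 changed sign, none of them past the FDR threshold. The sources of the lost calls are given with the results. With the replicate number as a block, 1 gene of the set passed at E10.0 (*Spred1*, log2 change 0.28) and 3 at E10.5, where *Dusp6* joined *Spry2* and *Spry4* (log2 change 0.28), and all genes called numbered 1961 at the earlier stage (601 in the same quasi-likelihood test without the block) and 280 at the later (341 without it). Deviations of same-numbered libraries from their group means correlated at 0.174, -0.188, -0.261 and -0.0512, and those of differently numbered libraries at -0.316 to 0.377. So few same-numbered libraries cannot decide whether the numbers pair them, and block values are not used elsewhere. With replicates 1 to 3 alone 1 gene of the set and 2018 of all genes passed at E10.0, while 3 of the set passed at E10.5. For the interaction, 23 of all genes passed, 87 under DESeq2, 39 without the filter and 6 with replicates 1 to 3. With each library left out, all genes called were 254 to 1062 at E10.0 and 286 to 516 at E10.5, 484 to 1515 with stage in wild type, 1895 to 2732 in mutants and 7 to 34 for the interaction. Genes of the set called were then 0 at E10.0, 1 to 2 at E10.5, 1 to 2 with stage in wild type and 2 to 4 in mutants.

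Signs turned only for uncalled values. At E10.0 *Spry1* was 0.0203 with the block and 0.12 with replicates 1 to 3, and -0.133 to 0.00190 with a library left out. *Il17rd* was -0.00135 with replicates 1 to 3. *Etv5* was 0.00961 under DESeq2, 0.00973 with RLE size factors, 0.0109 without the filter and 0.000511 with the stage alone, and -0.0606 to 0.0456 with a library left out. At E10.5 *Etv4* was -0.0231 with the block, -0.0422 with replicates 1 to 3 and -0.0445 to 0.0683 with a library left out, *Spred1* then -0.0119 to 0.110 and *Il17rd* -0.0103 to 0.179. With stage in wild type *Spry2* was then -0.0844 to 0.101 and *Il17rd* -0.0641 to 0.125, and in mutants *Spry4* was -0.0771 to 0.00255, *Dusp6* -0.00924 to 0.0861, *Il17rd* -0.0377 to 0.0851 and *Etv1* -0.0232 to 0.0524, or 0.00328 with the block. The interaction of *Il17rd* was -0.0919 to 0.0968. The cause of these turns was not tested. With 3 and 4 embryos a group, changes well under the fold of 1.2 were not resolved, and splits of the calls by direction moved with the size factors at E10.0, from 413 up and 406 down with TMM to 512 up and 336 down with RLE.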
